A study of Sus scrofa with 24 samples.

Results

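CALR and CRELD2, which encode a pair of chaperones of the endoplasmic reticulum, were followed in pig veins after placement of an arteriovenous haemodialysis graft. The 2 genes are among 6125 gene symbols on the array and among 5791 symbols that were tested. They were measured by 4 probes, 2 per gene, found by the RefSeq accession or numbered locus that the scanner files give for each probe. The later annotation in the files names the CALR probes A_72_P128321 and A_72_P402718 directly (gene ID 100381266). It gives the CRELD2 probes A_72_P153611 and A_72_P089186 as the numbered locus LOC100520025, and the RefSeq gene table lists CRELD2 under gene ID 100520025.

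The study sampled the vein wall in a porcine model of graft stenosis. The groups were the venous anastomosis, where graft and vein are joined, the vein segment downstream of it, and the external jugular vein as the control. Each site was taken at day 14 and at day 5 after the graft was placed. The 6 groups of site and day held 4 samples each, 24 in all, from 4 independent experiments with different biological replicates. Total RNA of whole tissue was hybridised to 2-colour Agilent arrays. The anastomosis and downstream samples carried the dye Cy5 and the jugular controls carried Cy3. Dye and site therefore cannot be told apart in any comparison with the jugular control at a single day, whereas they are the same on both days within a site. In whole tissue, fewer cells of a type and less RNA per cell cannot be told apart. The anastomosis and downstream comparisons of a day share that day's jugular samples. The anastomosis and jugular samples of a number and day also shared an array, whereas the downstream samples were on 8 other arrays. Differences of the downstream vein from either other site are thus between arrays. The labels do not say whether the 3 sites of a replicate number came from 1 animal.

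Proteins bound for the membrane or for secretion fold in the endoplasmic reticulum, where chaperones hold unfolded chains and disulfide isomerases join their cysteines. Calreticulin, the product of CALR, binds newly made glycoproteins through their trimmed sugar together with the membrane chaperone calnexin (CANX), and it also stores calcium. CRELD2 is a secreted and endoplasmic reticulum resident protein with EGF-like repeats, known from mouse and human cells as a target of the unfolded protein response, the programme that raises chaperones and foldases when unfolded protein accumulates.

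The probe sequences, copied from the scanner files, show which probes share bases. The probes of CALR share 0 bases at their ends, and the CRELD2 probes overlap by 12 bases, which are in capitals.
CALR A_72_P402718, the whole 60-base probe: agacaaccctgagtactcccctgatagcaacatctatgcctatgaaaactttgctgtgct
CALR A_72_P128321, its last 30 bases: aagaactacaaacgaaatttcgtattaaat
CRELD2 A_72_P153611, its last 30 bases: cttggttattcttaaacaGATTTGTATATT
CRELD2 A_72_P089186, its first 30 bases: GATTTGTATATTttgataccgtcgtttata
The 2 CRELD2 probes thus read adjoining stretches and are not independent measurements. The CALR probes start at positions 1847 and 944 of the target sequences in the files.

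Between 56.9% and 80.2% of all probes were well above background in a sample. The range was 56.9% to 73.9% in replicates 1 and 2 and 70.1% to 80.2% in replicates 3 and 4, whose images were read with a later version of the feature extraction protocol. All 4 probes of CALR and CRELD2 were well above background and unsaturated in 24 of 24 samples. Markers of contractile smooth muscle with a named probe, among them ACTA2, CNN1 and TAGLN, were also well above background in 24 of 24 samples, as is usual for vein wall. Levels are normalised log2 intensities, in which 1 unit is a 2-fold difference, and levels of different probes are not set against each other. Differences were tested with limma over 36141 probes, with each replicate number within a day as a block, and a probe passed at a Benjamini-Hochberg adjusted p under 0.05.

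At day 5 CALR was higher at the anastomosis than in the jugular control on both of its probes. Probe A_72_P128321 read 15.47, 15.45, 15.85 and 15.83 at the anastomosis, against 13.53, 14.67, 15.05 and 14.58 in the jugular vein (replicates 1 to 4). All 4 anastomosis samples lay above all 4 jugular samples. The fitted difference was 1.19 ± 0.21 (SE), a 2.29-fold higher level, with an adjusted p of 0.00189. Probe A_72_P402718 read 10.56, 10.10, 11.46 and 11.98 at the anastomosis, against 9.13, 9.21, 10.53 and 10.66 in the jugular vein. Here the groups overlapped, since replicates 3 and 4 were high at both sites, but each anastomosis sample lay above the jugular sample of its own number. The fitted difference of this probe was 1.15 ± 0.22 (SE), a 2.21-fold higher level, with an adjusted p of 0.00296.

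CRELD2 was higher at the anastomosis at day 5 by a larger factor on both probes. Probe A_72_P153611 read 14.12, 13.24, 13.27 and 13.43 at the anastomosis, against 11.42, 11.92, 12.09 and 11.76 in the jugular vein. Probe A_72_P089186 read 12.85, 11.30, 11.46 and 11.97 at the anastomosis, against 10.04, 9.77, 9.97 and 9.99 in the jugular vein. On both probes the lowest anastomosis sample lay above the highest jugular sample, and replicate 1 had the highest level. The fitted differences were 1.72 ± 0.29 (SE; 3.29-fold, adjusted p = 0.00147) and 1.95 ± 0.28 (SE; 3.87-fold, adjusted p = 0.000749). The pairwise differences of A_72_P153611 were 2.70, 1.32, 1.18 and 1.67, so replicate 1 was the widest pair. Whether CRELD2 differed by more than CALR was not tested.

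All 4 probes thus passed as higher at the anastomosis at day 5, where 9.75% of all probes tested passed as higher and 10.3% as lower. On 3 of the 4 probes the anastomosis and jugular samples did not overlap, and 7.19% of all probes were apart in this direction. Within replicates 1 and 2 alone the differences were 1.36 for CALR (A_72_P128321) and 2.01 for CRELD2 (A_72_P153611), with adjusted p of 0.101 and 0.0907. Within replicates 3 and 4 alone they were 1.03 and 1.43, with adjusted p of 0.0277 and 0.0325. Without the replicate block the adjusted p of the CALR probe A_72_P402718 was 0.467, and the other 3 probes still passed.

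The size of these differences depended on the normalisation. With median centring in place of the intensity-dependent loess, CALR A_72_P128321 differed by 2.36 and A_72_P402718 by 1.75, while the CRELD2 probes differed by 2.57 and 2.62. Median centring moved the median difference of all probes by 0.11, and it passed 28.0% of all probes as higher and 6.24% as lower, so that 81.7% of its calls were higher at the anastomosis, against 48.7% with loess. The direction of CALR and CRELD2 was the same under both.

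**Figure D1:**
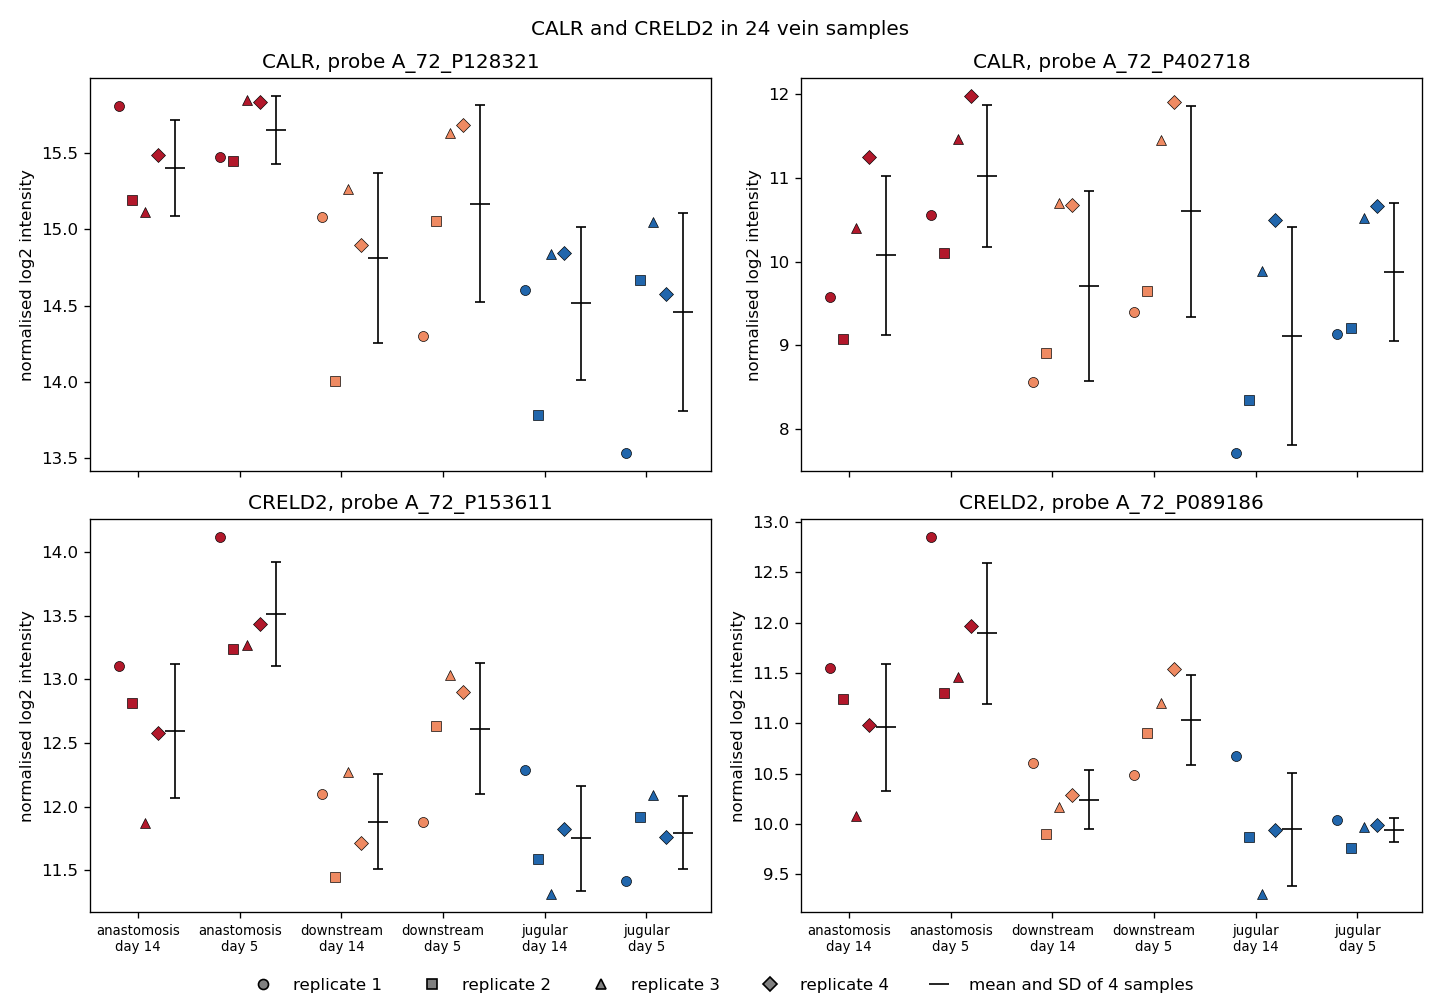
Normalised log2 intensity (y axis) of each CALR and CRELD2 probe in the 24 vein samples, by site and day (x axis); symbols mark the replicate number and bars the mean and SD of 4 samples. At day 5 all CRELD2 readings at the anastomosis lie above all jugular readings, and on the CALR probe A_72_P402718 replicates 3 and 4 lie above replicates 1 and 2 in every group.

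Downstream of the anastomosis at day 5 both genes read above the jugular control in every replicate pair, and 1 of the 4 probes passed. CRELD2 A_72_P089186 read 10.49, 10.91, 11.21 and 11.55 downstream, against 10.04, 9.77, 9.97 and 9.99 in the jugular vein. The groups did not overlap, and the difference was 1.10 ± 0.28 (SE; 2.14-fold, adjusted p = 0.0309). CRELD2 A_72_P153611 read 11.88, 12.63, 13.04 and 12.90 downstream, and its replicate 1 lay below the highest jugular sample, at 12.09. Its difference was 0.82 ± 0.29 (SE), with an adjusted p of 0.0929.

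The CALR probes did not pass downstream at day 5. Probe A_72_P128321 read 14.30, 15.06, 15.63 and 15.69 downstream, overlapping the jugular range of 13.53 to 15.05, with a difference of 0.71 ± 0.21 (SE; adjusted p = 0.0520). Probe A_72_P402718 read 9.40, 9.65, 11.45 and 11.90 downstream, with a difference of 0.72 ± 0.22 (SE; adjusted p = 0.0584). In this comparison 3.40% of all probes passed as higher and 4.97% as lower, and 3.38% were apart with the downstream samples higher, as 1 of the 4 was. The call of A_72_P089186 was lost without the replicate block (adjusted p = 0.128) and without replicate 2, 3 or 4 (adjusted p = 0.130, 0.149 and 0.241). Both CALR probes passed with single-channel quantile normalisation (adjusted p = 0.0270 and 0.0457) and with median centring, where they differed by 1.72 and 1.23. Median centring passed 22.2% of all probes as higher and 4.21% as lower here, so that 84.1% of all calls were higher, against 40.6% with loess.

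Between the anastomosis and the downstream vein, which carried the same dye on different arrays, no probe passed at day 5. CRELD2 A_72_P153611 was higher at the anastomosis in 4 of 4 replicate pairs, by 0.90 ± 0.29 (SE; adjusted p = 0.413, with a 95% interval of 0.28 to 1.52). CALR A_72_P128321 was higher in 4 of 4 pairs by 0.48 ± 0.21 (SE; adjusted p = 0.473, interval 0.03 to 0.94). In this comparison limma passed 0% of all probes (0 of 36141), and 10.2% had an unadjusted p under 0.05.

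At day 14 CALR was still higher at the anastomosis than in the jugular control, and CRELD2 passed on 1 of its 2 probes. CALR A_72_P128321 read 15.81, 15.19, 15.11 and 15.49 at the anastomosis, against 14.60, 13.78, 14.84 and 14.84 in the jugular vein. The groups did not overlap, although replicate 3 was only 0.28 above its jugular sample. The difference was 0.88 ± 0.21 (SE; 1.84-fold, adjusted p = 0.0216). CALR A_72_P402718 read 9.58, 9.08, 10.40 and 11.25 at the anastomosis, against 7.71, 8.34, 9.88 and 10.50 in the jugular vein. The groups overlapped, with each anastomosis sample above its own control, and the difference was 0.97 ± 0.22 (SE; 1.96-fold, adjusted p = 0.0176).

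CRELD2 A_72_P153611 read 13.10, 12.82, 11.87 and 12.58 at the anastomosis at day 14, against 12.29, 11.59, 11.31 and 11.82 in the jugular vein. Replicate 3 of the anastomosis lay within the jugular range. The difference was 0.84 ± 0.29 (SE; adjusted p = 0.0850), so this probe did not pass. CRELD2 A_72_P089186 read 11.55, 11.24, 10.08 and 10.98 at the anastomosis, against 10.67, 9.87, 9.30 and 9.94 in the jugular vein. These groups also overlapped, and the difference was 1.02 ± 0.28 (SE; 2.02-fold, adjusted p = 0.0384).

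Thus 3 of the 4 probes passed as higher at the anastomosis at day 14, where 4.75% of all probes passed as higher and 4.09% as lower. The groups were apart on 1 of the 4, against 3.08% of all probes. CALR A_72_P128321 did not pass without replicate 1, 2 or 4 (adjusted p = 0.0709, 0.0900 and 0.132) and passed without replicate 3 (0.0246). CALR A_72_P402718 did not pass without replicate 1 or 4 (0.0512 and 0.111), nor CRELD2 A_72_P089186 without replicate 2, 3 or 4 (0.130, 0.0736 and 0.223). Without the replicate block the adjusted p of the CALR probes was 0.246 and 0.712, and that of CRELD2 A_72_P089186 was 0.149. With only the groups compared in the fit, all 3 calls were lost. That setting passed 40 of 36141 probes as higher and 22 as lower, so these calls rested on the spread shared with the other groups. Within replicates 1 and 2 alone CALR A_72_P128321 differed by 1.31, and within replicates 3 and 4 alone by 0.46. With median centring all 4 probes passed, and the difference of A_72_P128321 was 1.87. That setting passed 31.1% of all probes as higher and 9.90% as lower, so that 75.9% of all calls were higher, against 53.7% with loess.

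Downstream at day 14 no probe of either gene passed against the jugular control. CRELD2 A_72_P153611 read 12.10, 11.44, 12.27 and 11.71 downstream, against 12.29, 11.59, 11.31 and 11.82 in the jugular vein. Only replicate 3 was higher than its control, and the difference was 0.13 ± 0.29 (SE), with a 95% interval of -0.49 to 0.75. CALR A_72_P128321 read 15.08, 14.01, 15.26 and 14.90 downstream, against 14.60, 13.78, 14.84 and 14.84 in the jugular vein. All 4 samples lay above their own controls by 0.05 to 0.47, with a fitted difference of 0.29 ± 0.21 (SE) and a 95% interval of -0.16 to 0.75. In this comparison 0.636% of all probes passed as higher and 0.268% as lower. With 1.11% of all probes apart and higher downstream, 0 of the 4 were apart. With median centring both CALR probes (1.20 and 1.06) and CRELD2 A_72_P089186 (0.88, adjusted p = 0.0473) passed, where 23.7% of all probes passed as higher and 6.44% as lower, and 78.6% of all calls were higher, against 70.3% with loess.

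No probe passed between the anastomosis and the downstream vein at day 14 either, where limma passed 0% of all probes (0 of 36141) and 14.2% had an unadjusted p under 0.05. The differences were 0.59 ± 0.21 for CALR A_72_P128321 and 0.71 ± 0.29 for CRELD2 A_72_P153611 (SE; adjusted p = 0.249 and 0.293), each higher at the anastomosis in 3 of 4 pairs.

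**Figure D2:**
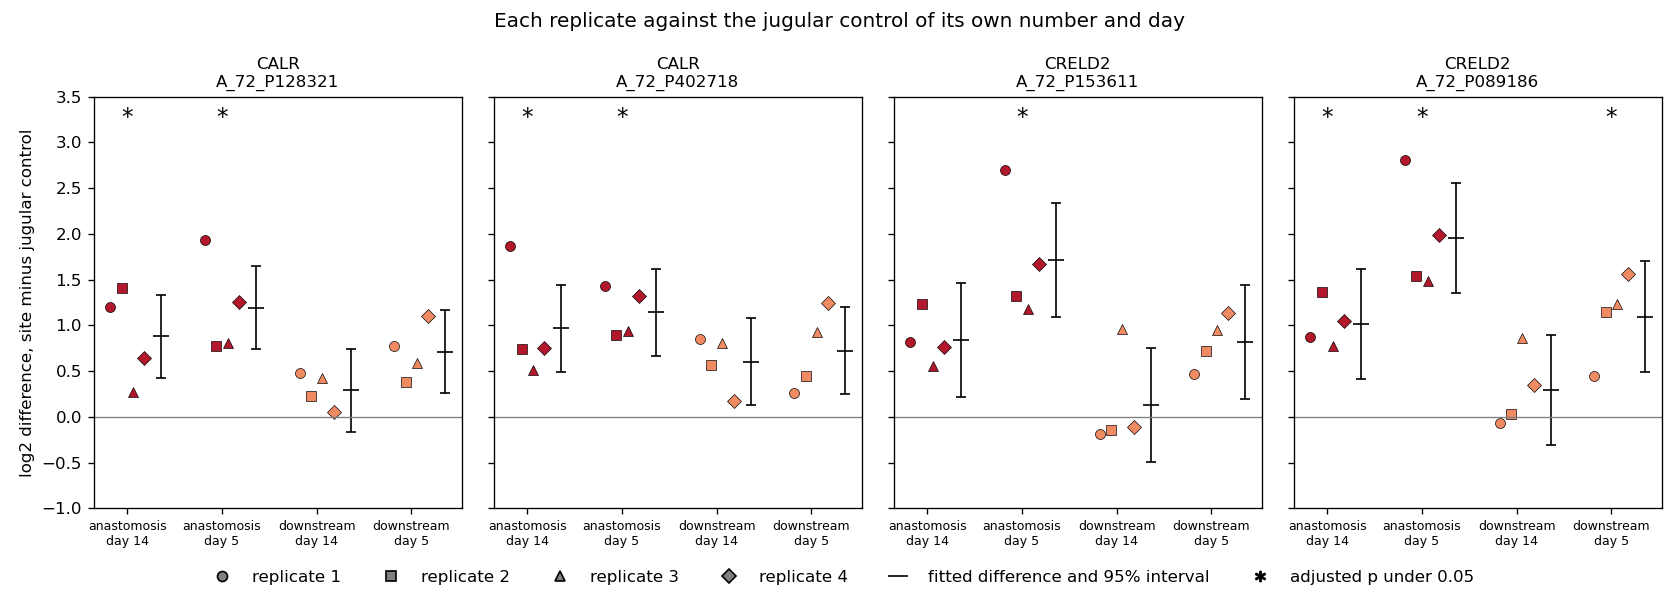
Log2 difference (y axis) of each anastomosis or downstream sample from the jugular control of its own number and day, for the 4 probes; symbols mark the replicate number, bars the fitted difference with its 95% interval, and stars an adjusted p under 0.05. The differences at the anastomosis lie above 0 in all pairs at both days, and downstream at day 14 the CRELD2 pairs lie on both sides of 0.

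The later levels of CRELD2 at the anastomosis were lower than the early ones without passing the test. At the anastomosis A_72_P153611 averaged 12.59 ± 0.52 at day 14 and 13.51 ± 0.41 at day 5 (SD, n = 4 each). All 4 samples of day 14, at 11.87 to 13.10, lay below all 4 of day 5, at 13.24 to 14.12. The difference was -0.92 ± 0.30 (SE; unadjusted p = 0.0135 and limma adjusted p = 0.413). The overlapping probe A_72_P089186 differed by -0.93 ± 0.41 (SE; adjusted p = 0.569), with replicate 1 of day 14 inside the range of day 5. Day 14 and day 5 samples were apart on 1 of the 4 probes, and 2.58% of all probes were apart with day 14 lower. This comparison passed 0.00553% of all probes (2 of 36141), and 8.70% had an unadjusted p under 0.05.

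CALR differed between the days by less or with a wide spread. At the anastomosis A_72_P128321 averaged 15.40 ± 0.32 at day 14 and 15.65 ± 0.22 at day 5 (SD, n = 4 each), a difference of -0.25 ± 0.19 (SE; adjusted p = 0.821). Replicate 1 of day 14, at 15.81, was nearly as high as the highest sample of day 5, at 15.85. A_72_P402718 differed by -0.95 ± 0.54 (SE; adjusted p = 0.723), and its groups of 4 overlapped. On the authors' value table, which was made from the same arrays, A_72_P402718 differed by -1.04 (adjusted p = 0.0292) and CRELD2 A_72_P089186 by -1.12 (adjusted p = 0.0498), so both passed there, where 4.59% of all probes passed as higher and 6.05% as lower.

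Downstream the day 14 minus day 5 differences of CRELD2 were -0.73 ± 0.29 and -0.80 ± 0.25 (SE; unadjusted p = 0.0345 and 0.0126, adjusted p = 1 for both). Those of CALR were -0.36 ± 0.38 and -0.89 ± 0.73 (SE). Limma passed 0% of all probes here, with 4.52% at an unadjusted p under 0.05, and 1.15% of all probes but 0 of the 4 were apart with day 14 lower. In the jugular vein CRELD2 differed by -0.04 ± 0.24 and 0.01 ± 0.27, and CALR by 0.06 ± 0.36 and -0.77 ± 0.67 (SE; 0% of all probes passed, with 1.88% at an unadjusted p under 0.05). The mean of A_72_P402718 was thus lower at day 14 at all 3 sites, the control included, without passing at any.

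**Figure D3:**
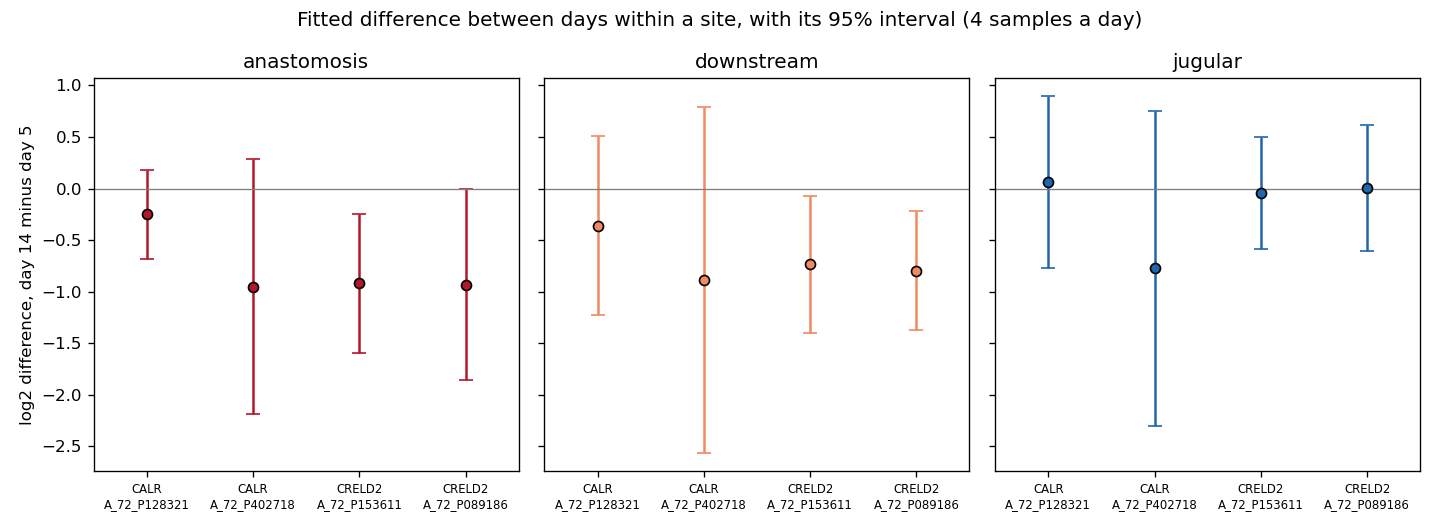
Fitted log2 difference between day 14 and day 5 (y axis) of the 4 probes within each site, with its 95% interval from 4 samples a day. The CRELD2 points lie at -0.92 and -0.93 at the anastomosis, at -0.73 and -0.80 downstream and near 0 in the jugular vein, and the intervals of CALR A_72_P402718 are the widest.

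The change of the site difference between days, in which a dye shift common to both days cancels, did not pass for any probe. For CRELD2 the change, day 14 minus day 5, of the anastomosis difference from the jugular vein was -0.88 ± 0.41 on A_72_P153611 and -0.94 ± 0.40 on A_72_P089186 (SE; unadjusted p = 0.0505 and 0.0333, adjusted p = 0.576 and 0.534). For CALR it was -0.31 ± 0.30 and -0.18 ± 0.31 (SE; adjusted p = 0.856 and 0.945). Downstream the change was -0.69 ± 0.41 and -0.80 ± 0.40 for CRELD2 and -0.42 ± 0.30 and -0.12 ± 0.31 for CALR (SE). Limma passed 0% of all probes in each change, with 8.70% at the anastomosis and 7.61% downstream at an unadjusted p under 0.05.

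By group mean CRELD2 was ordered the same way by both probes down to the downstream vein at day 14. On A_72_P153611 the anastomosis at day 5 stood first at 13.51 ± 0.41, then the downstream vein at day 5 at 12.61 ± 0.51 and the anastomosis at day 14 at 12.59 ± 0.52. The downstream vein at day 14 (11.88 ± 0.37), the jugular vein at day 5 (11.80 ± 0.29) and the jugular vein at day 14 (11.75 ± 0.41) followed (SD, n = 4 each). The downstream vein at day 5 and the anastomosis at day 14 differed by 0.02 and the last 3 by less than 0.10 between neighbours, within their spread, whereas the gaps of 0.90 below the anastomosis at day 5 and 0.71 below the anastomosis at day 14 were wider than the SD of either neighbour. CALR A_72_P128321 ran from 15.65 ± 0.22 at the anastomosis at day 5, through 15.40 ± 0.32 there at day 14, 15.17 ± 0.64 and 14.81 ± 0.56 downstream at day 5 and day 14, to 14.52 ± 0.50 and 14.46 ± 0.65 in the jugular vein at day 14 and day 5. Each gap between neighbours was smaller than the SD of at least 1 of the pair. On A_72_P402718 the anastomosis at day 5 (11.03 ± 0.85) was again first and the jugular vein at day 14 (9.11 ± 1.30) last, with gaps of at most 0.60 between neighbours, all within their SD.

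The probes of a gene differed in how they followed the replicate number. CALR A_72_P402718 was higher in replicates 3 and 4 than in replicates 1 and 2 in 6 of 6 groups, by 1.39 to 2.17. For A_72_P128321 the same difference was -0.20 to 0.98, above 0 in 5 of 6 groups. For the CRELD2 probes it was -0.73 to 0.71 and -0.86 to 0.68, above 0 in 3 and 2 of 6 groups. The shift of both CALR probes was unequal between sites. At day 14 that of A_72_P128321 was -0.20 at the anastomosis and 0.65 in the jugular vein. That of A_72_P402718 was 1.49 at the anastomosis and 2.17 in the jugular vein. The anastomosis difference of A_72_P402718 was 1.31 within replicates 1 and 2 alone and 0.63 within replicates 3 and 4 alone. The spot intensity of A_72_P402718 before background correction was as low as 64.4 in the jugular vein at day 14 (replicate 1), over a local background of 16. Replicate number and protocol version cannot be told apart here.

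The other genes of the endoplasmic reticulum were taken from lists by role, with each gene read on its brightest probe. Of 85 listed gene symbols besides CALR and CRELD2, 37 had a tested probe. At day 5, at the anastomosis against the jugular vein, 14 of the 37 rose and 3 fell, with a median difference of 0.31, against 0.01 over all probes. Of all probes 9.75% passed as higher and 10.3% as lower in this comparison, so the count that fell was near its share. These shares also stand beside the counts by role that follow. They cover all tested probes, dim ones included, whereas each listed gene was read on its brightest probe. Of the 22103 probes well above background in all samples, 3212 passed as higher and 3552 as lower. The count that rose was 29 with median centring, where 28.0% of all probes passed as higher. It was 9 without the replicate block, 8 without replicate 4, 0 in replicates 1 and 2 alone and 8 in replicates 3 and 4 alone.

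Among the chaperones 3 of 7 rose and 0 fell at the anastomosis at day 5, with a median difference of 0.88. HSPA5 (BiP), the main Hsp70 chaperone of the compartment, read 15.34 ± 0.23 at the anastomosis and 14.22 ± 0.28 in the jugular vein (SD, n = 4 each), higher by 1.13 ± 0.25 (SE; adjusted p = 0.00607). HSP90B1, its Hsp90 partner, read 15.86 ± 0.24 at the anastomosis and 14.98 ± 0.29 in the jugular vein, higher by 0.88 ± 0.21 (SE; adjusted p = 0.00869). DNAJC3, a co-chaperone of BiP, also passed, at 1.00 ± 0.24 (SE). CANX, the membrane partner of calreticulin in the glycoprotein cycle, differed by 0.09 ± 0.16 (SE; adjusted p = 0.768), although with median centring it differed by 1.14 and passed. The count of 3 was 1 without replicate 4, 0 in replicates 1 and 2 alone and 6 with median centring. CRELD1, the relative of CRELD2, differed by -0.27 (adjusted p = 0.409).

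The disulfide enzymes rose in 6 of 6 tested cases at day 5 at the anastomosis, by 0.58 to 1.56. PDIA3, the isomerase that works with calreticulin and calnexin on glycoproteins, was higher by 0.90 ± 0.20 (SE; adjusted p = 0.00587). PDIA5, another isomerase of the family, was higher by 1.56 ± 0.22 (SE; adjusted p = 0.000656). The highest adjusted p was that of the oxidase ERO1A, at 0.68 ± 0.23 (SE; adjusted p = 0.0498). The count of 6 was 2 without the replicate block, 3 without replicate 4 and 0 in replicates 1 and 2 alone.

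In the translocation and glycoprotein list 3 of 6 rose, led by SSR1, a subunit of the complex beside the translocon, at 2.08 ± 0.31 (SE; adjusted p = 0.000834). In the degradation list 2 of 4 rose. These were VCP, the ATPase that pulls misfolded proteins out of the membrane, at 0.65 ± 0.13, and SELENOS, a membrane partner of VCP, at 0.96 ± 0.13 (SE). Of the calcium store genes 0 of 6 rose. RYR2, a calcium release channel known from heart muscle, fell by 3.15 ± 0.58 (SE; adjusted p = 0.00227), and ATP2A2, the calcium pump, differed by -1.04 without passing.

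Of 8 tested sensors and transcription factors of the unfolded protein response 0 rose and 2 fell at the anastomosis at day 5, with a median of -0.44, which was 0.41 with median centring, where 4 rose and 0 fell. The 2 that fell were 0 without replicate 1, without replicate 4 and without the replicate block. DDIT3 (CHOP), a factor of prolonged stress, fell by 1.39 ± 0.39 (SE; adjusted p = 0.0204), and differed by -0.66 with median centring without passing. XBP1 read 15.16 ± 0.30 at the anastomosis and 15.77 ± 0.19 in the jugular vein (SD, n = 4 each), so that it fell by 0.61 ± 0.18 (SE; adjusted p = 0.0270), and with median centring it was higher by 0.61 (adjusted p = 0.0346). The direction of XBP1 therefore depended on the scaling.

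**Figure D4:**
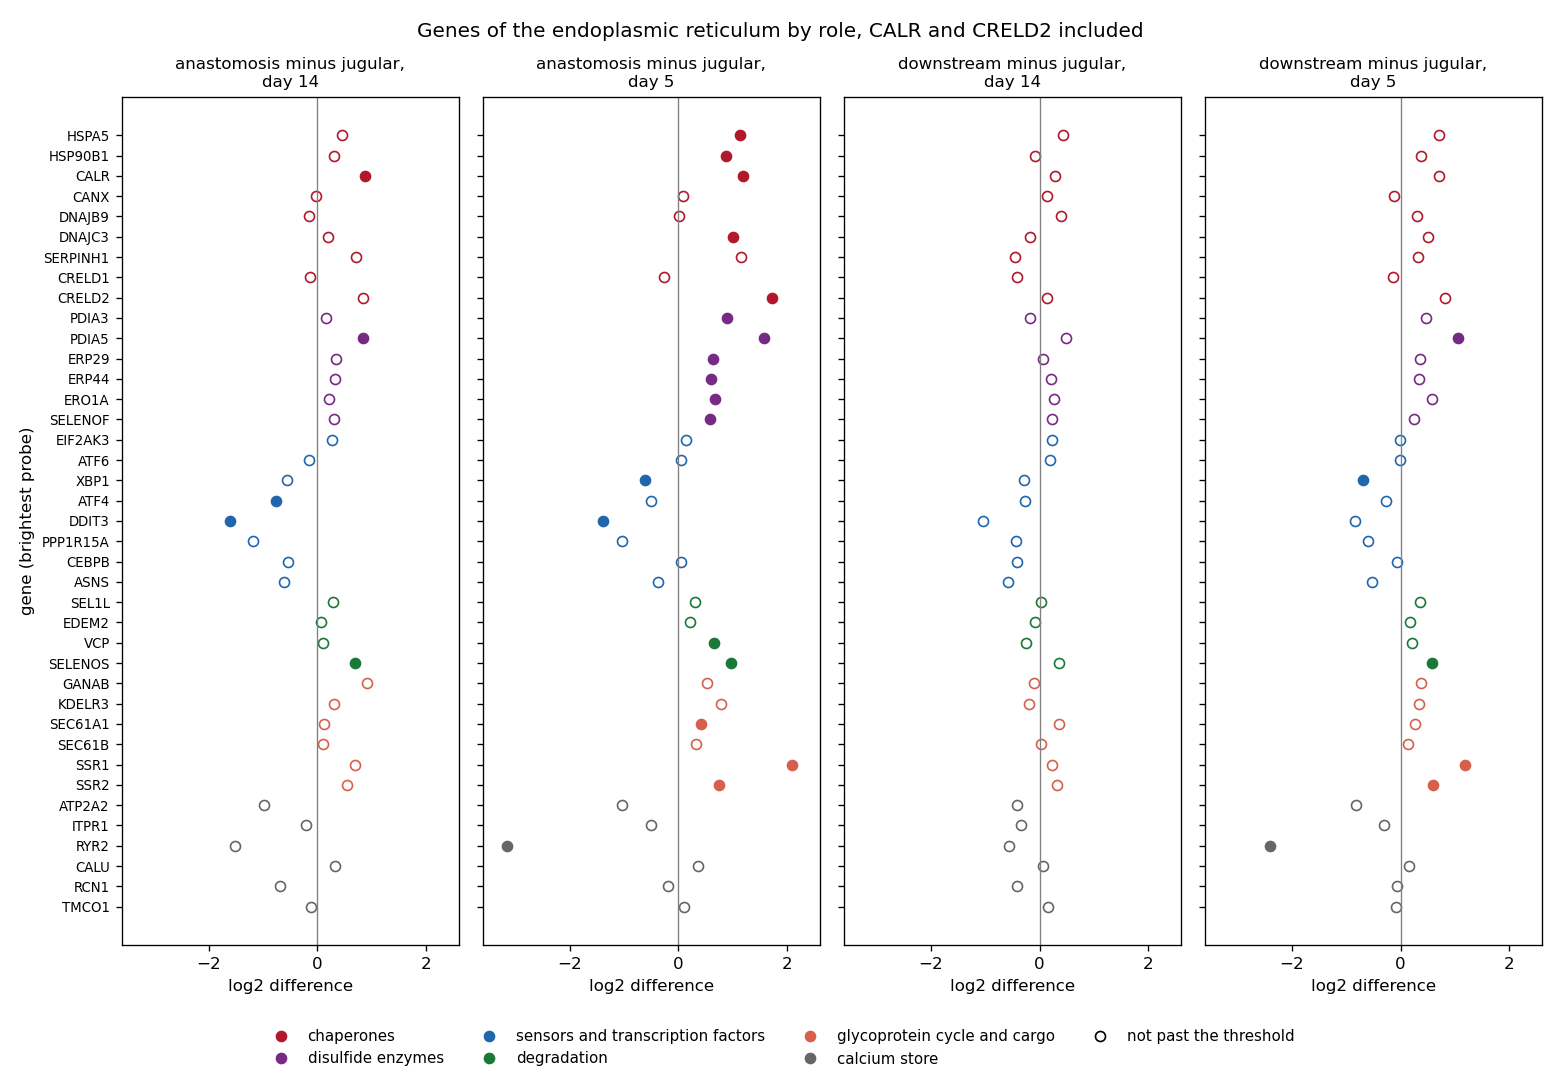
Fitted log2 difference (x axis) from the jugular vein of CALR, CRELD2 and the other measured genes of the endoplasmic reticulum (rows, by role), at the anastomosis and downstream at day 14 and day 5; filled points passed the threshold. At day 5 the disulfide enzymes lie to the right of 0 at the anastomosis and several sensors and transcription factors to the left, and at day 14 most points are open.

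Downstream at day 5, 4 of 37 rose and 2 fell, where 3.40% of all probes passed as higher and 4.97% as lower (median 0.22, against 0.01 over all probes). PDIA5 was higher by 1.05 ± 0.22 and SSR1 by 1.18 ± 0.31, while RYR2 fell by 2.39 ± 0.58 and XBP1 fell by 0.69 ± 0.18 (SE), the last standing at 0.37 with median centring. The 4 that rose were 24 with median centring (22.2% of all probes higher), 1 without the replicate block and 0 without replicate 2, 3 or 4. HSPA5, at 0.70 ± 0.25, and HSP90B1, at 0.38 ± 0.21 (SE), did not pass, with adjusted p of 0.0918 and 0.267.

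At the anastomosis at day 14, 2 of the 37 rose and 2 fell, near the 4.75% of all probes higher and 4.09% lower (median 0.12, against 0.01 over all probes). PDIA5 was higher by 0.84 ± 0.22 and SELENOS by 0.70 ± 0.13, while DDIT3 fell by 1.61 ± 0.39 and ATF4, the factor upstream of it, fell by 0.77 ± 0.20 (SE). ATF4 stood at 0.02 with median centring, under which 24 of the 37 rose and 0 fell. That setting passed 31.1% of all probes as higher and 9.90% as lower. The count that rose was 0 without replicate 4 and 1 without any other single replicate. DDIT3 and ATF4 did not pass without replicate 1 (adjusted p = 0.0661 and 0.0596), without replicate 4 (0.220 and 0.173), without the replicate block (0.0957 and 0.508) or with only the groups compared (0.119 and 0.137), nor ATF4 without replicate 2 (0.113). HSPA5 (0.45 ± 0.25), HSP90B1 (0.31 ± 0.21) and PDIA3 (0.15 ± 0.20, SE) did not pass. Downstream at day 14, 0 of 37 rose or fell by limma (median -0.08), near the 0.636% of all probes that passed as higher and 0.268% as lower. Of all probes 15.1% had an unadjusted p under 0.05 there. With median centring 19 rose, where 23.7% of all probes passed as higher.

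Between the days at the anastomosis 0 of the 37 passed in either direction, with a median day 14 minus day 5 difference of -0.39, against 0.00 over all probes. HSP90B1 (-0.75 ± 0.16), HSPA5 (-0.67 ± 0.20) and PDIA3 (-1.16 ± 0.45, SE) differed without passing, with adjusted p of 0.260, 0.399 and 0.492. On the authors' value table PDIA3 (-1.42, adjusted p = 0.00521) and PDIA5 (-0.93, adjusted p = 0.0253) passed between the days. There 4.59% of all probes passed as higher and 6.05% as lower. SSR1, at -1.32, passed in 1 of 17 alternatives. Of the 37, 4 had a positive difference, among them RYR2, at 1.60, which also passed in 1 of 17 alternatives.

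Markers of other cells moved in the same comparisons, and their part in the CALR and CRELD2 results was not tested. Of all probes 9.75% passed as higher and 10.3% as lower at the anastomosis at day 5. At day 14 these shares were 4.75% and 4.09%. Downstream they were 3.40% and 4.97% at day 5, and 0.636% and 0.268% at day 14. At day 5, 5 of 6 measured cell cycle genes rose at the anastomosis, among them CCNB1, by 3.63, and their summed level on the log2 scale was 14.45 to 15.12 there, against 12.09 to 12.50 in the jugular vein. Downstream at day 5, 4 of the 6 rose, with sums of 13.02 to 14.24. At day 14, 0 of 6 passed at either site, with sums of 12.21 to 13.87 at the anastomosis, 11.82 to 13.37 downstream and 12.07 to 13.33 in the jugular vein.

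Of the contractile smooth muscle markers, at day 5, 5 of 7 measured fell at the anastomosis and 3 of 7 downstream, with sums of 16.95 to 18.30 and 16.69 to 18.72, against 19.56 to 20.00 in the jugular vein. The count at the anastomosis was 0 with median centring, 0 without replicate 4 and 2 without replicate 1. At day 14, 0 of 7 passed at either site, and the jugular sums, of 16.64 to 19.99, reached below those of the anastomosis, at 16.95 to 18.48.

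Of the macrophage markers 3 of 9 rose at the anastomosis at day 5, among them MSR1, by 2.50. Only 6 of the 9 had a positive difference there, with a range of -0.57 to 3.32 and a median of 0.55. At day 14, 4 of 9 macrophage markers rose and 9 of 9 had a positive difference. Their sums at the anastomosis were 16.21 to 16.82 at day 14 and 15.69 to 16.29 at day 5, against 14.56 to 15.67 and 15.08 to 15.57 in the jugular vein. Plasma and B cells, which secrete large amounts of protein, could be followed with few of their listed markers. At the anastomosis at day 5 PRDM1 rose by 1.12, and CD79A, which was well above background in 15 of the 24 samples, differed by 0.10 without passing. At the anastomosis at day 5, 2 of 5 endothelial, 1 of 9 fibroblast and 0 of 7 adipocyte markers rose, and 0 of these fell. Yet 0 of the 7 adipocyte markers had a positive difference there, with a median of -1.69. The adipocyte sums at day 5 were 13.11 to 15.31 at the anastomosis and 13.93 to 15.44 in the jugular vein. At day 14 they spread widely, over 14.86 to 18.62 at the anastomosis and 11.77 to 19.40 in the jugular vein. The fibroblast count was near the 9.75% of all probes that passed as higher there.

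The genes most like each chaperone were ranked by Pearson's r over the 24 samples on normalised log2 levels, after the mean of each replicate number was subtracted, among 5773 symbols. The samples share sites, days and dyes, so r describes these samples only. Those most like CALR were IDH2 (0.939), a mitochondrial isocitrate dehydrogenase, CCAR2 (0.934), a nuclear regulator of deacetylation, MIF (0.933), a cytokine, TUBB (0.924), a tubulin, and HK1 (0.911), a hexokinase. CRELD2 ranked 12 for CALR, at 0.888.

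Those most like CRELD2 were EPRS (0.967), a transfer RNA synthetase, LRRC59 (0.956), a ribosome-binding protein of the endoplasmic reticulum membrane, ESPL1 (0.940), the separase of mitosis, NOP9 (0.940), a nucleolar protein, and MELK (0.937), a mitotic kinase. CALR ranked 91 for CRELD2. HSP90B1 stood at 0.883 with CRELD2 and 0.754 with CALR, HSPA5 at 0.745 and 0.622, PDIA3 at 0.785 and 0.624, and CANX at 0.316 and 0.218. XBP1 was at -0.392 with CRELD2 and -0.459 with CALR.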

How the data were processed

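Vein RNA was measured on 16 2-colour Agilent arrays. Per the file headers, Feature Extraction 10.5.1.1 produced the deposited scanner files, in which every spot has an intensity in each channel. A series value table from the authors holds log2 values whose normalisation no source used here describes. These values correlated with the processed signals at 0.952 to 0.993, with a median of 8.27 to 8.40 per sample, and the table served as an alternative.

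Each sample was read from its own channel. The green channel of 8 arrays, which no label assigns to a sample, entered the normalisation of its array and no test. Mean and background intensities were corrected with normexp (offset 50), normalised by loess within arrays and by Aquantile between arrays in limma 3.58.1, run in R 4.3.3. Control and outlier-flagged spots were dropped, and repeated spots of a probe were averaged. Of 43603 probes, 36141 were well above background in at least 4 of 24 samples and were tested. Of all probes 20.7% have a symbol, named through the files' annotation and the RefSeq gene table, so many genes of the lists could not be followed.

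Site comparisons used limma with 6 group terms and 8 blocks, 1 per replicate number within a day, leaving 12 residual degrees of freedom. Days were compared within a site over 8 samples without a block. In each of 12 comparisons the Benjamini-Hochberg adjustment ran over all tested probes. Samples of the same number and day deviated together, with correlations of 0.175 to 0.812 and 24 of 24 pairs over 0.1. Across days 11 of 12 pairs of a site and number passed 0.1. Days were not paired in the main fit because no label says whether a number is the same animal on both days. The labels describe different biological replicates but not the animal behind each sample. Array number limits the precision.

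CALR, CRELD2 and the lists were chosen with earlier results of these data known. Genes outside CALR and CRELD2 were named by rule: HSPA5, HSP90B1, XBP1, CANX and PDIA3; per comparison, the 4 listed genes of the endoplasmic reticulum with the largest difference among those that passed and moved one way in all 4 pairs (for days, groups that do not overlap); the 5 most alike by correlation; and cell markers whose summed level moved with the chaperones. Others named as examples of a count were chosen after their values were seen. Alternatives covered background correction, normalisation, filter, block, groups fitted, left-out replicates, replicates of each protocol version and the deposited table. The analysis was tested on simulated data. Promoter and protein sequences were not used here. One marker of the plasma and B cell list, and the list's summed level, are not reported here.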

Additional observations from a re-analysis of the deposited data

How the results depend on the processing

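Over 19 alternatives CALR and CRELD2 gave 744 values, of which 668 kept their direction and side of the threshold and 27 changed sign. No change of sign touched a difference that had passed. The cause was not tested for any of them.

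Downstream against jugular at day 5, CALR A_72_P128321 passed with no background correction (0.73), median centring (1.72), single-channel quantiles (0.86), only probes above background in all samples (0.71) and only the groups compared (0.71). CRELD2 A_72_P153611 passed there with median centring (1.52), only the groups compared (0.82) and without replicate 1 (0.93), and leaving out 1 replicate gave 0.71 to 0.93. CALR A_72_P402718 passed there with median centring (1.23), single-channel quantiles (0.75), only probes above background in all samples (0.72), without replicate 1 (0.87) and in replicates 3 and 4 alone (1.09). Median centring also passed CRELD2 A_72_P153611 at the anastomosis at day 14 (1.58) and, downstream at day 14, CALR A_72_P128321 (1.20), CALR A_72_P402718 (1.06) and CRELD2 A_72_P089186 (0.88). At the anastomosis at day 14 CALR A_72_P128321 missed the threshold without the replicate block (0.88, adjusted p = 0.246), with only the groups compared (0.88), in replicates 1 and 2 alone (1.31), in replicates 3 and 4 alone (0.46) and in the deposited table (0.67), and leaving out 1 replicate gave 0.71 to 1.09. At day 5 replicates 1 and 2 alone, with fewer samples, gave 1.36 for CALR and 2.01 for CRELD2 A_72_P153611 without passing.

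Signs changed among small differences. For the jugular vein between days, CRELD2 A_72_P089186 was -0.0136 with processed signals, -0.36 in replicates 3 and 4 alone, -0.35 in the deposited table and -0.20 to 0.23 without 1 replicate. CRELD2 A_72_P153611 was 0.0115 with median centring, 0.0315 with quantiles, 0.27 in replicates 1 and 2 alone and -0.35 to 0.20 without 1 replicate. CALR A_72_P128321 was -0.12 in the deposited table and -0.28 to 0.38 without 1 replicate. Downstream at day 14, replicates 1 and 2 alone gave -0.17 for A_72_P153611 (-0.15 to 0.24 without 1 replicate) and -0.0189 for A_72_P089186. In replicates 1 and 2 alone CALR A_72_P128321 differed between days at the anastomosis by 0.0407. For CALR A_72_P402718 the change of the anastomosis difference was 0.14 and of the downstream difference 0.35 there (-0.35 to 0.20 without 1 replicate). The change between anastomosis and downstream was 0.10 for it in replicates 3 and 4 alone. Without 1 replicate that change was -0.25 to 0.0238 for A_72_P402718, -0.12 to 0.29 for A_72_P128321, -0.51 to 0.16 for A_72_P153611 and -0.50 to 0.29 for A_72_P089186.

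With the replicate block across days, CRELD2 A_72_P153611 at the anastomosis was -0.92 (adjusted p = 0.144), and the block changed no call between days. CALR A_72_P402718 was dim in the jugular vein, with a lowest uncorrected spot intensity of 64.4 at day 14 and 254.9 at day 5. With no background correction 47 values of the 4 probes kept their direction and side of the threshold. The part of background in the differences of A_72_P402718 was not tested.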
